A study of Mus musculus with 20 samples.

Results

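Regions of open chromatin that fresh mouse epidermal cells shared, and that cultured cells of the same sorted lineage lacked, were collected from 10 lists of ATAC-seq peaks. ATAC-seq uses the Tn5 transposase to place sequencing adapters into accessible DNA. The overlapping peaks of all lists formed 101406 union regions, of which 25858 carried a peak in all 8 lists from fresh cells. Of these, 5131 carried no peak in either of the 2 lists from cultured cells, which is 19.8% of the regions of all 8 fresh lists (95% interval 19.4 to 20.3%). The 5131 regions were chosen by presence or absence of a called peak in each list, so their absence from culture is a description and was not tested. They are called closed in culture below, although a missing peak means only that no peak there passed the authors' threshold, and the lists give no signal for cultured cells at these places.

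The cells came from the tail epidermis of Lrig1CreER/Rosa-TdTomato mice, in which Cre expressed from the Lrig1 locus marks a lineage that starts in the upper hair follicle, and every group was sorted as Lrig1 GL and positive for Sca1, the surface protein encoded by Ly6a. The cultured groups were cells grown from a distal memory region and from a control region without memory, whose names place them 8 weeks after the first wound. The fresh groups were epidermis treated with PRT4165, an inhibitor of the histone H2A ubiquitin ligase of Polycomb, its vehicle, wounded and UVB-treated epidermis, UVB-treated epidermis, and a wound series with unwounded homeostasis, cells taken 1 week or 8 weeks after a first wound, and cells taken 1 week after a second wound. Each group had 2 libraries pooled into 1 list, so the spread between replicates is unknown for every value, no difference was tested, and the intervals are Wilson 95% intervals that cover counting error only. In such bulk lists, fewer cells with an open region and less opening per cell cannot be told apart. The sources used here do not give the time in culture, the medium or the passage.

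Accessible chromatin marks promoters, where transcription starts, and enhancers, which can lie far from the gene they act on. Promoters rich in CpG dinucleotides tend to be open in most cell types, whereas enhancers and CpG-poor promoters tend to be open in particular cell types or states. Keratinocytes in the epidermis sit on a basement membrane beside other cell types, renew from basal and follicle stem cells, and differentiate upward into a barrier of keratins, lipids and cross-linked envelope proteins. In culture they meet serum or growth factors, plastic and a changed calcium supply, which are known to alter their differentiation.

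Closed regions were rare at gene starts, and the sequences there show a shared feature. The bases below are the 250 that precede the gene start in RefSeq's promoter table (GRCm38.p6, to which mm10 corresponds), printed 5′ to 3′ on the strand of the gene, and capitals mark each CpG dinucleotide. The first set gives 6 promoters whose whole window lay in a closed region. Acer1, an alkaline ceramidase of the epidermis, had the strongest closed region within 1 kb of a start, and the others were chosen after their values were seen, for the known roles of their genes. Klk5 encodes a protease that acts in shedding of the cornified layer, Defb6 an antimicrobial beta-defensin, Aldh1a7 an aldehyde dehydrogenase, Cyp2b10 a cytochrome P450 induced by foreign compounds, and Krtdap a protein of differentiating keratinocytes. The second set gives the 2 promoters with the highest median strength among regions held by all 10 lists, those of Exoc4, a subunit of the exocyst, and Depdc1a.
Acer1 (chr17:56982127-56982376, minus strand): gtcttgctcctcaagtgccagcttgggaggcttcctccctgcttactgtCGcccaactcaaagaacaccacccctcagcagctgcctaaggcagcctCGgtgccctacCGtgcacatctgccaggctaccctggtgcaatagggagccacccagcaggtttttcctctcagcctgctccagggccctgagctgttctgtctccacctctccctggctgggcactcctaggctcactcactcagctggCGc
Klk5 (chr7:43842019-43842268, plus strand): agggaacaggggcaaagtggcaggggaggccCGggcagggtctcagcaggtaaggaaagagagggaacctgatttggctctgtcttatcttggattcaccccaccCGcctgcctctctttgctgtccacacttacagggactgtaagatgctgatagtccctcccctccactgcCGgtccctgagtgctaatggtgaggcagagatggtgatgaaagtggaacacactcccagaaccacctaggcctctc
Defb6 (chr8:19225228-19225477, plus strand): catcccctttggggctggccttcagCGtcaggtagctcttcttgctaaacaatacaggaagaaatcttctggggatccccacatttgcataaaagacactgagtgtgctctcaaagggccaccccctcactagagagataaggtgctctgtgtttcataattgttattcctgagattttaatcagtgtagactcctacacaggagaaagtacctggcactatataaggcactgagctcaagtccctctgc
Aldh1a7 (chr19:20727557-20727806, minus strand): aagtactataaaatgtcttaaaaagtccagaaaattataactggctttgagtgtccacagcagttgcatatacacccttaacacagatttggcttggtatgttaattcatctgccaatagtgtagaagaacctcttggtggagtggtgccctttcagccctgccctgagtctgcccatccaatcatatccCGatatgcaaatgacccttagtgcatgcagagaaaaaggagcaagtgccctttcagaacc
Cyp2b10 (chr7:25897408-25897657, plus strand): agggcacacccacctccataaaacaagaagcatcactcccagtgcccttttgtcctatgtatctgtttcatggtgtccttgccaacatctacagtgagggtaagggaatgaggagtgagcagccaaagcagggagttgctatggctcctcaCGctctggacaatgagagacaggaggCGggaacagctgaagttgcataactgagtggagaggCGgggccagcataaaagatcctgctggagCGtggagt
Krtdap (chr7:30787655-30787904, plus strand): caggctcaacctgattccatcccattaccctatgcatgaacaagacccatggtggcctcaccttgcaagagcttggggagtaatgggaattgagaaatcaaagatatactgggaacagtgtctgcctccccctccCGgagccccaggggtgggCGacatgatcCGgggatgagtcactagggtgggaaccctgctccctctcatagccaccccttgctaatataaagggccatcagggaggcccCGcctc
Exoc4 (chr6:33248878-33249127, plus strand): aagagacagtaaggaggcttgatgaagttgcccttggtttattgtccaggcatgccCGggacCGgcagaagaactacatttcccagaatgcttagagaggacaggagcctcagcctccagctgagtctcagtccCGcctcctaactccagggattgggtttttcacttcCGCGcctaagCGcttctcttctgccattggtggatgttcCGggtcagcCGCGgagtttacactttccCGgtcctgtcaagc
Depdc1a (chr3:159495183-159495432, plus strand): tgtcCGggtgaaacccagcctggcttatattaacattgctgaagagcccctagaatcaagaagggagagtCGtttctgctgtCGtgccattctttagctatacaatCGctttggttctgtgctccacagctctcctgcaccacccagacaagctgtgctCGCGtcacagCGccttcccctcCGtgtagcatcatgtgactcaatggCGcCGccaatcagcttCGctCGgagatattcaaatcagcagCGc
The 6 closed promoters held 4, 3, 1, 1, 4 and 4 CpG dinucleotides in the order printed, while Exoc4 held 10 and Depdc1a 13. The ratio of observed to expected CpG was 0.180 for Acer1, 0.149 for Klk5, 0.0735 for Defb6, 0.0862 for Aldh1a7, 0.234 for Cyp2b10 and 0.202 for Krtdap. It was 0.533 for Exoc4 and 0.750 for Depdc1a.

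The same held over all promoters whose window lay inside a region. The 125 promoters in closed regions, of 118 genes, had a median CpG ratio of 0.244 (quartiles 0.137 and 0.361), against 0.795 (0.635 and 0.935) for the 9323 promoters in regions of all 10 lists. A ratio of 0.6 or more was found for 12 of the 125 closed promoters (9.60%, 5.58 to 16.0%) and for 79.2% of those in regions of all 10 lists (78.4 to 80.02%). The closed promoters were thus CpG-poor as a group, and their quartile range did not overlap that of promoters open in every list. Among all 32841 promoters with a usable window the median was 0.374, and 34.0% reached 0.6. The median share of G and C was 52.4% in closed promoters and 62.4% in those of all 10 lists, while that of all promoters was 52.4%.

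**Figure D1:**
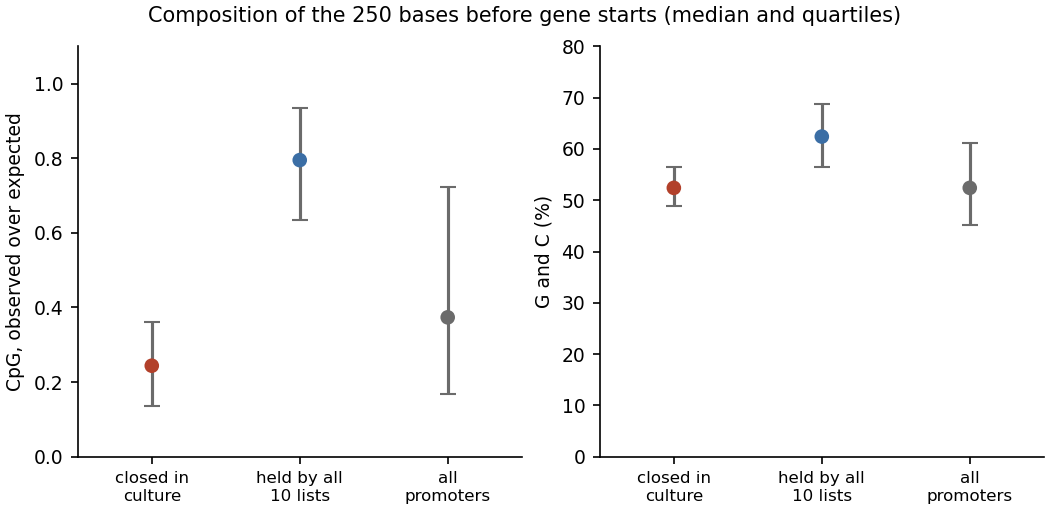
Ratio of observed to expected CpG (left) and percent G and C (right) in the 250 bases before gene starts, for promoters inside closed regions, inside regions of all 10 lists, and all promoters of the table; points are medians and bars quartiles. The closed promoters sit at a median CpG ratio of 0.244, against 0.795 for promoters of all 10 lists.

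Short motif strings were counted on both strands of the same windows, and those given here were picked from the 22 searched with their values in view. The AP-1 string TGANTCA was present in 16 of the 125 closed promoters (12.8%, 8.03 to 19.8%), against 4.001% of promoters in regions of all 10 lists and 6.75% of all promoters. The Krtdap promoter printed above holds it as tgagtca. The Fox string TGTTTAC was present in 8.00%, 1.86% and 3.17% of the same 3 sets, the Gata string AGATAA in 12.0%, 3.66% and 9.99%, and the Tead string GGAATG in 18.4%, 9.52% and 12.6%. These strings were thus more frequent in closed promoters than in promoters of all 10 lists. The closed-promoter intervals of Gata (7.41 to 18.9%) and Tead (12.59 to 26.1%) included the 9.99% and 12.64% of all promoters. Those of AP-1 and Fox (4.403 to 14.1%) lay above the shares of all promoters. Other strings ran the other way. The GC box GGGCGG was present in 25.6% of closed promoters, 67.0% of promoters of all 10 lists and 32.7% of all promoters, and the ETS string CCGGAAG in 1.60%, 16.6% and 6.91%. The CCAAT string, with no CpG, was present in 24.8%, 37.5% and 33.9%, and the spaced string of the p53 family in 66.4%, 83.9% and 63.5%. The E-box CACGTG, which holds a CpG, was present in 8.00%, 9.06% and 6.02%, and the interval of the closed promoters (4.403 to 14.1%) included both other shares. These frequencies move with base composition, whose part was not tested, and a match is not evidence that a factor binds.

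Most closed regions lay away from gene starts. Of the 4914 closed regions on chromosomes with annotated starts, 209 had their summit within 1 kb of a start (4.25%, 3.72 to 4.85%), against 7776 of 18468 regions of all 10 lists (42.1%, 41.4 to 42.8%). The median distance to a start was 23515 bp for closed regions and 4747.5 bp for regions of all 10 lists. Seen from the other side, 2.56% of the 8161 fresh regions within 1 kb of a start were closed, and 28% of the 16819 regions farther away. The share climbed with distance and then levelled off: it was 1.95% up to 0.5 kb, 9.31% from 0.5 to 1 kb, 16.8% from 1 to 2 kb, 25.2% from 2 to 5 kb and 30.5% beyond 100 kb.

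**Figure D2:**
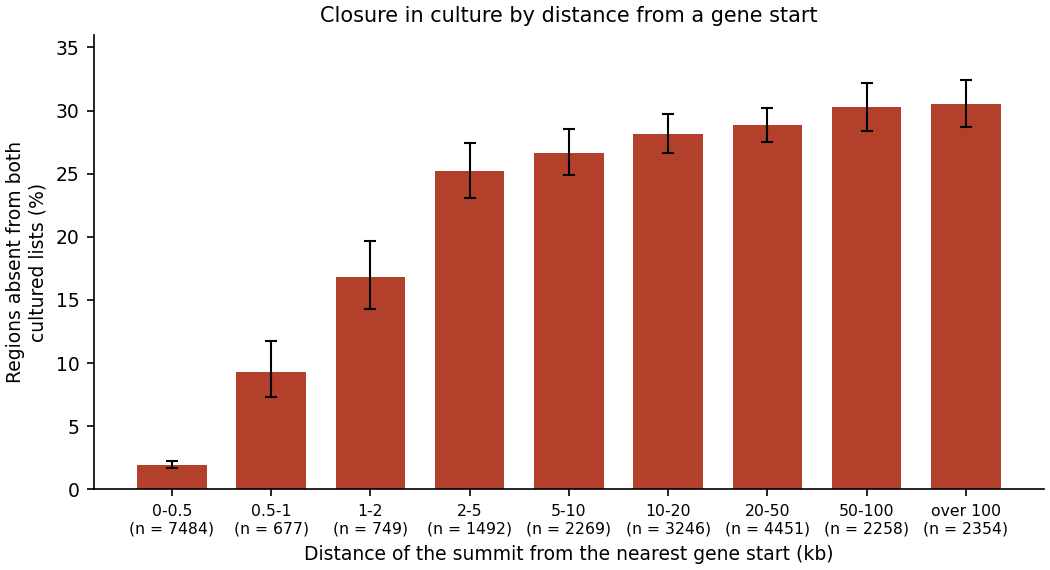
Percent of the regions of all 8 fresh lists that were absent from both cultured lists, by distance of the summit from the nearest gene start in kb; bars are shares, error bars Wilson 95% intervals, and n the regions in each class. The share was 1.95% up to 0.5 kb and 30.5% beyond 100 kb.

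Closed regions lay inside a protein-coding gene span in shares whose intervals overlapped those of kept ones, with 50.4% of closed regions (49.0 to 51.7%) and 51.6% of regions of all 10 lists (50.9 to 52.3%). They were more often in gene deserts, over 100 kb from any protein-coding gene, with 660 of 5131 (12.9%, 12.0 to 13.8%) against 845 of 19075 (4.43%, 4.15 to 4.73%). The 7859 regions found in both cultured lists and in no fresh list had a like distribution, with 4.15% within 1 kb of a start and 16.0% in deserts. Few regions of either class thus lay at gene starts. Differences in strength at the starts held by all 10 lists were not measured.

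The closed regions were spread over weak and strong fresh peaks. Strength is the percentile of the authors' signal value of the strongest peak within its own list, which cannot be compared between lists as a level. The median percentile of the closed regions was 69.9 with PRT4165, 70.8 with vehicle, 66.2 with wound and UVB, 68.4 with UVB, 46.7 in homeostasis, 61.1 at 1 week, 47.7 at 8 weeks and 55.3 after the second wound. In the same lists the regions of all 10 lists had medians of 77.4, 79.1, 74.5, 77.8, 66.9, 72.5, 64.9 and 69.2. The closed regions were therefore the weaker set in each of the 8 lists, with the widest gap in homeostasis. By the median peak of a region, the homeostasis medians were 52.7 for closed regions and 60.0 for regions of all 10 lists. Membership in either set rests on which peaks passed the calling threshold, and the part of this selection in the gap was not tested. The homeostasis and 8-week lists are also the shortest, with 35195 and 34644 regions, against 45714 in the cultured distal memory list and 54188 in the cultured control list.

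Strong regions were a smaller share of the closed regions than of those in all 10 lists. Over the 8 fresh lists, 422 closed regions had a median percentile of 90 or more (8.22%), as had 4102 regions of all 10 lists (21.5%). In every one of the 8 lists, 44 closed regions stood in the strongest 10%, 1617 in the stronger 50% and 925 in the weaker 50%. In 4 bands of equal size by percentile in the homeostasis list, from weakest to strongest, the regions over 1 kb from a start were closed in 36.1%, 32.2%, 24.6% and 13.7% of cases. Those within 1 kb were closed in 7.34%, 3.35%, 1.79% and 0.625%. The share was thus lower in stronger bands at both positions, and in each band regions away from starts were closed more often than regions at starts.

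**Figure D3:**
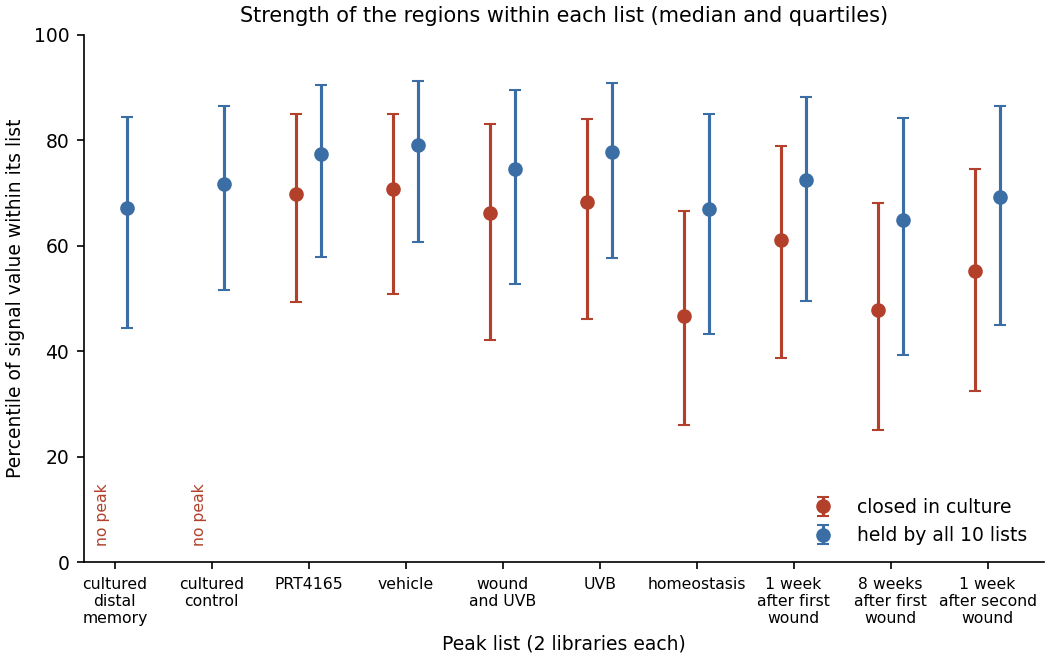
Percentile of the authors' signal value within each list for regions closed in culture and for regions held by all 10 lists; points are medians, bars quartiles, and each list pools 2 libraries. The closed regions have no peak in the cultured lists and lie below the regions of all 10 lists in each fresh list, for example at 46.7 against 66.9 in homeostasis.

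The rule asks only that overlapping peaks join into 1 union region, so the 8 fresh lists need not hold the same bases. A base shared by all 8 fresh lists was still found in 5118 of the 5131 closed regions (99.7%), and in 99.8% of regions of all 10 lists. In the closed regions the shared stretch had a median of 510 bp. The median width of the union region was 824 bp for closed regions (quartiles 666 and 1013), against 1012 bp for regions of all 10 lists and 516 bp for regions of the cultured lists alone. Most closed regions had no cultured peak close by: the nearest peak of either cultured list lay at a median of 7.81 kb. A cultured peak lay within 0.2 kb of 96 closed regions (1.87%), within 1 kb of 503 (9.80%) and within 50 kb of 4769 (92.9%). These shares were not taken for other regions or for the genome at large, so they are not shown to be particular to the closed regions.

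Regions just outside the rule, held by 1 cultured list, had an intermediate share at gene starts but a fresh strength near that of the closed regions. Their median percentile in the fresh lists was 61.3 where distal memory alone held them and 64.2 where control alone did. The distal memory list alone kept 300 further regions and the control list alone 1352, so 25.1% of the fresh regions were absent from the distal memory list and 21% from the control list. In the cultured list that held them, these peaks were weak, with median percentiles of 19.9 in distal memory and 25.1 in control, while regions held by both cultured lists had a median of 69.2. Of the regions held by 1 cultured list, 11.01% lay within 1 kb of a start, between the 4.25% of closed regions and the 42.1% of regions of all 10 lists. On the other edge, 3239 regions were missing from both cultured lists and from exactly 1 fresh list. That list was homeostasis for 1481 of them and the 8-week list for 1190, the 2 shortest lists, and their median percentile in the fresh lists was 50.1, against 63.3 for the closed regions.

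By gene, closure was scattered rather than general. A summit inside protein-coding genes was assigned to the shortest of them, and any other to the nearest gene end within 100 kb, so an assignment is a position and not evidence of control. Of the 24222 assigned fresh regions, 4471 were closed (18.5%), and this share is the level for the gene counts below. At least 1 closed region was assigned to 2951 of 11756 genes (25.1%). Of these genes, 2319 also had a region of all 10 lists, and 1199 had a region of the cultured lists alone. Among the 1006 genes with 5 or more fresh regions, the median share closed was 22.2%, and all regions were closed for 2 genes.

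Those 2 genes were Pou2f3 and Opcml. Pou2f3 (chromosome 9) encodes a POU-domain transcription factor of suprabasal epidermis, also known for tuft cells, and its 6 fresh regions formed a closed run of 84.2 kb from 43126935 to 43211152. Their median percentiles over the fresh lists were 53.1, 72.7, 64.9, 74.0, 14.1 and 60.0 from the lower coordinate up, so 5 of the 6 stood in the stronger 50% at the median. No region of the cultured lists alone was assigned to Pou2f3. Opcml, a cell adhesion molecule anchored in the membrane, had 5 closed regions with median percentiles between 62.5 and 86.3, and 2 regions of the cultured lists alone.

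Thbs1 came next, with 5 of 6 regions closed. It encodes thrombospondin 1, an extracellular matrix glycoprotein. Its closed region at chr2:118039170-118040143 had percentiles of 92.1 at the lowest, 95.4 at the median and 98.3 at the highest over the 8 lists, and the region at chr2:118021556-118022186 had 66.0, 94.5 and 97.9. In the order named, these regions stood at -72.3 and -89.96 kb from the lower-coordinate end of the gene span, where negative values lie outside the gene. The other closed regions stood at -30.1, -20.5 and 13.5 kb, and the gene span is 15.3 kb long. The region just before the gene was kept in all 10 lists, and 1 region was found in the cultured lists alone. Genes with 4 of 5 regions closed included Bmper, a BMP-binding protein, Lzts1, Slc16a10, a transporter of aromatic amino acids, Tfcp2l1, a factor of the grainyhead family, Zbtb16, a zinc finger repressor induced by glucocorticoids, and Zhx2. Ccdc192 had 7 of 9 closed, Babam2, a subunit of a BRCA1 complex, 8 of 11, and 5 of 7 were closed for Arhgap18, Boc, a co-receptor of Hedgehog, and Dapl1, a gene of differentiating epithelium.

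Ranked by number of closed regions, the genes named next had 7 to 9 each. Arhgap24, a GTPase-activating protein for Rac, had 9 of 13 closed, Asap1, one for Arf, 9 of 15, Mcc 9 of 15, Hivep2 9 of 16 and Tiam1, an activator of Rac, 9 of 19. P3h2, a collagen prolyl hydroxylase, had 8 of 13, Nfatc1 8 of 17, Rad51b, a DNA repair gene, 8 of 23, Cachd1 7 of 10, Zbtb7c 7 of 15, Arid1b, a subunit of BAF remodelling complexes, 7 of 17, Pdzd2 7 of 19 and Auts2 7 of 21. Counts favour genes with many regions, and some of these genes also had regions of the cultured lists alone, 8 at Asap1 and 9 at Auts2. In Arhgap24, 3 regions were kept in all 10 lists and 1 in a single cultured list.

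**Figure D4:**
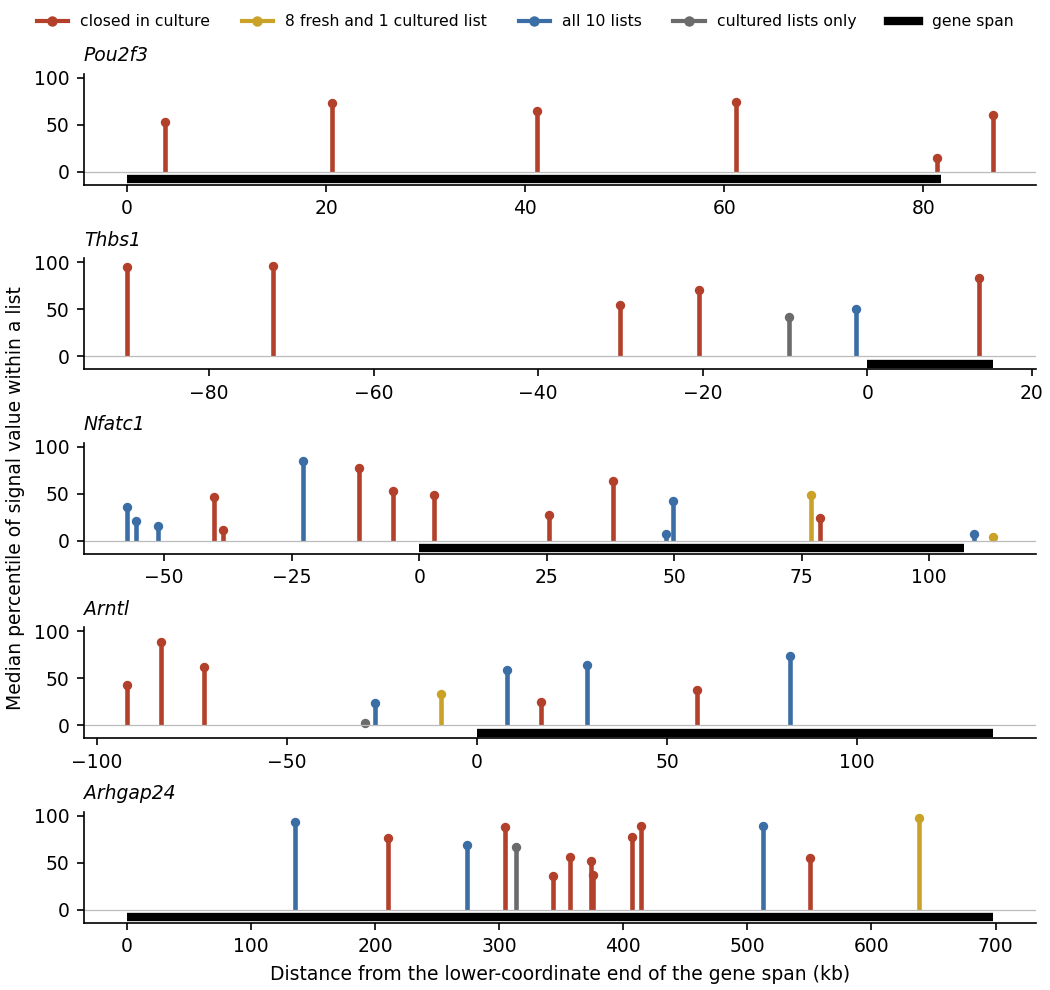
Regions assigned to Pou2f3, Thbs1, Nfatc1, Arntl and Arhgap24 by distance from the lower-coordinate end of the gene span in kb; height is the median percentile of the signal value over the 8 fresh lists, or over both cultured lists for regions of these alone, and the black bar is the gene. All 6 regions of Pou2f3 and 5 of 6 at Thbs1 were closed, while 7 regions at Nfatc1 and 4 at Arntl were held by all 10 lists.

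Some closed regions stood next to each other. Along the chromosomes, 2441 closed regions (47.6%) stood beside another closed region with no kept fresh region between them, and 40 runs held 5 or more. With 28% of regions over 1 kb from a start closed, some neighbours are closed whatever their arrangement, and whether closed regions group beyond that level was not tested. The longest runs had 8 regions. One covered Meis1, a homeobox gene, and the desert beside it over 447.6 kb of chromosome 11, with a median percentile of 80.1, and the other reached from Sez6l to Grk3 over 593.2 kb of chromosome 5. A run of 7 lay in the cluster of serine protease inhibitors from Serpinb5 to Serpinb3b on chromosome 1, from 106865696 to 107198469, and had the highest median percentile of the runs named here, 88.5. Other runs of 7 lay at Ntrk2 and Agtpbp1, at Itgb5 and Kalrn, at Ccdc192, in Arhgap24, and in a desert of chromosome 5 over 1178 kb. A run of 6 spanned Map4k4, Il1r2 and Il1r1, both Il1r genes being receptors of interleukin 1, over 242.0 kb of chromosome 1.

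The strongest closed regions lay away from gene starts. Near Mboat1, a lysophospholipid acyltransferase, the region at chr13:30124920-30125538 had percentiles of 99.0 at the lowest, 99.7 at the median and 99.9 at the highest over the 8 fresh lists, and the nearest cultured peak was 10.7 kb away. Near Tek, the angiopoietin receptor, the region at chr4:94725628-94726377 had 99.4, 99.7 and 99.8. Both stood above almost every other peak in all 8 lists. The region at chr5:79734722-79735284, in the desert run named above, had 85.9, 99.7 and 99.9, with its lowest value in homeostasis, and the nearest cultured peak lay 812.5 kb away. The remaining 7 of the 10 strongest lay in Negr1, Slc8a1, a sodium and calcium exchanger, Rsu1 and Rabgap1l, near Tmem45a, and at 2 places in a desert of chromosome 14.

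At gene starts, the 209 closed regions included 116 at 111 genes with a full name and 93 at predicted genes. The Acer1 region, chr17:56981796-56982612, had percentiles of 97.8 with PRT4165, 99.5 with vehicle, 97.2 with wound and UVB, 97.8 with UVB, 98.4 in homeostasis, 98.6 at 1 week, 96.1 at 8 weeks and 97.6 after the second wound. It was thus uniformly strong in fresh cells, and the nearest cultured peak lay 7.14 kb away. The other strong ones had median percentiles from 90.01 to 93.8 and belonged to Spag9, a scaffold of JNK signalling, Iqub, Fcgrt, the neonatal Fc receptor, Disp1, which releases Hedgehog ligands, Prss28, Atp2b2, a calcium pump, Hnmt, which inactivates histamine, Gpr146 and Ston2. The Klk5 region had percentiles from 81.0 to 93.1 and a median of 88.5. The Defb6 region had a median of 87.7 but stood at 35.2 in the 8-week list.

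Several weaker closed regions lay at the starts of epidermal genes, chosen here after their values were seen. Krtdap had percentiles from 9.27 to 38.6, Tef, a clock-controlled bZIP factor, from 9.41 to 40.8, Il33, an alarmin, from 5.55 to 35.3 at 1 of its starts, and Lgals7, galectin 7 of stratified epithelia, from 0.867 to 9.55. A closed region at Krt5, the keratin of basal cells, had percentiles from 3.39 to 27.9 and lay 0.58 kb from a cultured peak, and the other fresh region of Krt5 was kept in all 10 lists. Enzymes of foreign compounds and retinoids recurred among the starts: by symbols beginning with Cyp, Ugt, Gst, Aldh, Adh or Sult, 9 of 41 regions at starts were closed (22.0%, 12.0 to 36.7%), against 2.56% of all regions at starts. They lay at Adh1, Aldh1a7, Cyp2b10, Cyp2w1, Cyp4b1, Gstm2, Gstm6 and Ugt1a6a. Members of such families share sequence, and the sources used here do not say how reads matching several copies were counted. None of the 196 regions at starts of Zfp genes was closed, which allows a share of up to 1.92%, nor was any of the 56 at ribosomal protein genes, which allows up to 6.42%.

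Genes of epidermal differentiation carried 16 closed of 47 fresh regions (34.0%, 22.2 to 48.3%), against 18.5% of all assigned regions. Ivl, which encodes the envelope protein involucrin, had both of its regions closed, and they were strong, with median percentiles of 89.99 and 90.5. The single regions assigned to Krt1 and Krt77, keratins of the differentiating layers, were closed, and the Krt1 region at chr15:101834902-101835637 had percentiles of 89.6, 95.3 and 98.7 at the lowest, median and highest. Both regions of Dsg1a, a desmosomal cadherin of the upper layers, 2 of 3 at Krtdap, 3 of 7 at Grhl1, a factor of barrier formation, and 2 of 4 at Prdm1, a repressor of the upper layers, were closed as well. Of the 17 genes with a fresh region, 10 had at least 1 closed. The other genes of the list had none closed, with 5 fresh regions at Cebpb, 4 at Klf4, 3 at Sbsn, 3 at Notch3, 2 at Cebpa and 1 each at Zfp750 and Casp14.

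Genes of the interfollicular basal layer had 19 closed of 63 (30.2%, 20.2 to 42.4%). Beside Thbs1, these were led by Trp63, the master regulator of stratified epithelium, with 3 of 8, and Lama3, a laminin chain of the basement membrane, with 3 of 8. The Trp63 regions had median percentiles of 51.3, 79.8 and 86.4, and 3 others were kept in all 10 lists. Genes of the bulge and lower follicle had 22 closed of 67 (32.8%, 22.8 to 44.7%). Nfatc1, the calcium-dependent factor of stem cell quiescence, gave 8 of them, and the Wnt effectors Tcf7l1 and Tcf7l2 4 of 9 and 4 of 11. The Tcf7l1 region at chr6:72724080-72725214 had percentiles from 79.4 to 95.8. Upper follicle genes had 9 of 43 (20.9%, 11.4 to 35.2%), near the level of all genes. Of these, Lrig1 itself had 0 of 8 closed and Gata6, a factor of the sebaceous duct lineage, 2 of 4.

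The list of Skint genes had the highest share of the lists, with 6 closed of 11 (54.5%, 28.0 to 78.7%). Skint genes encode butyrophilin-like proteins of keratinocytes, and Skint1, the first described, selects dendritic epidermal T cells in the mouse thymus. Both regions of Skint10, 2 of 3 at Skint4 and the single ones of Skint5 and Skint11 were closed, all on chromosome 4. Skint1 had 0 of 2 closed, and both of its regions and the single ones of Skint8 and Skint9 were held by all 10 lists. The closed regions of Skint4 had median percentiles of 88.8 and 91.9, that of Skint5 91.5 and that of Skint11 95.6, so 4 of the 6 stood high in the fresh lists. The genes are close copies in neighbouring positions, and the regions are therefore not independent.

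The 95% intervals of the differentiation, basal layer, bulge and Skint lists lay above the share of all assigned regions, as did that of the fibroblast markers, with 3 closed of 6 (50%, 18.8 to 81.2%). These intervals treat regions of the same gene as independent, which they need not be. Nfatc1, Tcf7l1 and Tcf7l2 gave 8, 4 and 4 of the 22 closed bulge regions, and Thbs1 gave 5 of the 19 of the basal layer. Whether these lists stand above the level without such genes was not tested. The interval of the basal layer included the share of all genes where genes were assigned within 20 kb (21.2%, 12.2 to 34.0%, against 16.9%) and where no cultured peak within 1 kb was allowed (22.2%, 13.7 to 33.9%, against 16.6%). A further setting kept only regions over 1 kb from a start. It leaves out chromosome 18, where no gene starts were available, from every list. For the bulge list this removes all 17 regions of Nfatc1, 8 of them closed. What the basal layer and differentiation lists lose with this chromosome was not counted. The part of position in the changed shares was therefore not tested. Among regions over 1 kb from a start, where 26.7% of assigned regions were closed, Skint genes had 6 of 8 (75%, 40.9 to 92.9%), differentiation 12 of 33 (36.4%, 22.2 to 53.4%), bulge 14 of 40 (35.0%, 22.1 to 50.5%) and basal layer 15 of 50 (30.0%, 19.1 to 43.8%). In that setting, which was added after the data were seen, the intervals of the last 3 included the share of all genes. The interval of the Skint genes lay above that share in both settings. For the fibroblast markers the interval over 1 kb from a start (18.8 to 81.2%) included the 26.7%. Within 20 kb they had 2 of 5 closed (40%, 11.8 to 76.9%), which included the 16.9%. Their interval lay above the share of all genes with no cultured peak within 1 kb and with the strongest 50% of each fresh list.

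**Figure D5:**
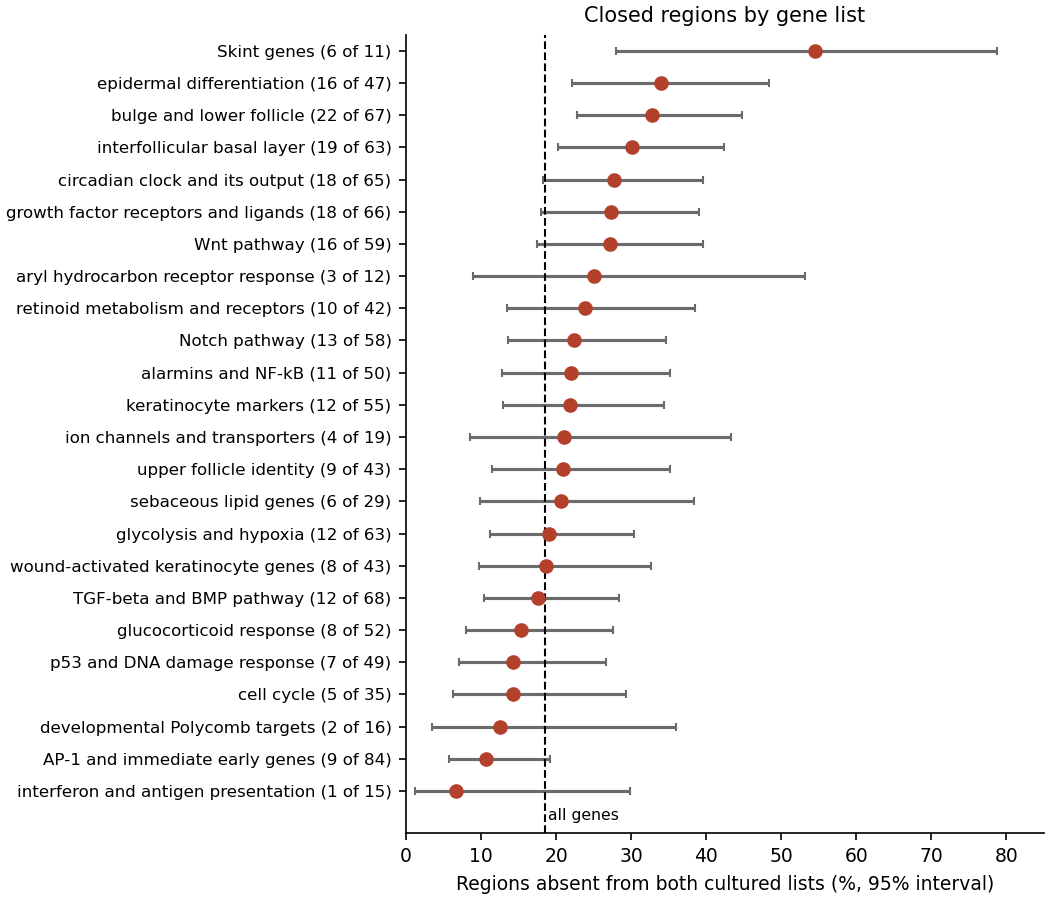
Percent of the regions of all 8 fresh lists that were closed in culture, for regions assigned to each gene list; points are shares, bars Wilson 95% intervals, counts are closed of all fresh regions, and the dashed line is the share over all assigned regions. Marker lists of other cells are not plotted. Of the lists plotted, Skint genes, epidermal differentiation, bulge and basal layer lie above the line of 18.5% with their intervals, and AP-1 and immediate early genes stand at 10.7%.

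The intervals of the signalling lists included the 18.5% of all assigned regions. Growth factor receptors and ligands had 18 closed of 66 (27.3%, 18.0 to 39.0%), and 6 of 11 were closed at Ntrk2, the receptor of BDNF, both at Ereg, the EGF-family ligand epiregulin, and 2 of 3 at Fgfr3. The Wnt list had 16 of 59 (27.1%, 17.4 to 39.6%), led by 4 of 9 at Ror1, a Wnt5a receptor. The Notch list had 13 of 58 (22.4%), alarmins and NF-kB 11 of 50 (22.0%) with 5 of 9 at Nfkb1, and TGF-beta and BMP 12 of 68 (17.6%). Where no cultured peak within 1 kb was allowed, the intervals of the Wnt list (27.1%, 17.4 to 39.6%) and of the growth factor list (25.8%, 16.7 to 37.4%) lay above the 16.6% of all genes. Over 1 kb from a start the Wnt list had 33.3% and the growth factor list 31.5% closed, against 26.7% of all genes, which both intervals included. With the strongest 50% of each fresh list against the whole cultured lists, alarmins and NF-kB had 6 of 20 closed (30%, 14.5 to 51.9%). This lay above the 11.5% of all genes in that setting, which the intervals of the Wnt list (11.1%) and the growth factor list (13.3%) included.

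Circadian clock genes had 18 closed of 65 (27.7%, 18.3 to 39.6%). Arntl, which encodes the clock activator BMAL1, had 5 of 10 closed, of which 3 lay 92.1, 83.2 and 71.7 kb outside the lower-coordinate end of the gene span, the strongest at chr7:113095049-113095595 with percentiles of 44.8, 88.8 and 97.1. Rora, a nuclear receptor that drives Arntl, had 5 of 11, Npas2 2 of 4 and Per2 2 of 4. The Per2 regions were weak, at median percentiles of 6.04 and 14.1, and lay within 1 kb of a cultured peak. Glucocorticoid response genes had 8 of 52 (15.4%), 4 of them at Zbtb16, and retinoid genes 10 of 42 (23.8%), led by Rxra, a shared partner of nuclear receptors, with 3 of 7. The aryl hydrocarbon receptor list had 3 of 12.

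The intervals of the stress-response and proliferation lists included the 18.5% of all assigned regions. AP-1 and immediate early genes, which respond within minutes to stimuli and to tissue handling, had 9 closed of 84 (10.7%, 5.74 to 19.1%). A closed region was assigned to 5 of the 19 genes, near the 25.1% of all genes with fresh regions. The 14 genes with none included Jun, Junb, Fosb, Atf3 and Egr1, which had 3, 2, 6, 6 and 1 fresh regions in that order. Egr2 had 3 of 8 and Myc 3 of 12. Over 1 kb from a start the list had 9 of 65 (13.8%, 7.46 to 24.3%), below the 26.7% of all genes there. Where genes were assigned within 20 kb it had 2 of 53 (3.77%, 1.04 to 12.8%, against 16.9% of all genes). With no cultured peak within 1 kb allowed it had 7 of 84 (8.33%, 4.10 to 16.2%, against 16.6%). With the strongest 50% of each fresh list against the whole cultured lists it had 4 of 26 (15.4%, 6.15 to 33.5%), and the interval included the 11.5% of all genes in that setting. The p53 list had 7 of 49 (14.3%) and the cell cycle list 5 of 35 (14.3%). Over 1 kb from a start the cell cycle list had 5 of 19 (26.3%), against 26.7% of all genes there. There were 2 of 16 closed in the list of Polycomb targets and 1 of 15 in that of interferon and antigen presentation. Wound-activated keratinocyte genes had 8 of 43 (18.6%) and glycolysis and hypoxia 12 of 63 (19.05%), which are the level of all genes, and sebaceous lipid genes 6 of 29 (20.7%) and ion channels 4 of 19 (21.1%).

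Markers of other cells had few fresh regions in all. Fibroblast markers had 3 closed of 6 (50%, 18.8 to 81.2%), at Fbn1 and Dpt, and endothelial markers 3 of 7, at Tek and Erg. The single fresh regions of Col1a1 and Pdgfra were kept in all 10 lists. T cell markers had 1 of 8, at Thy1, Langerhans cell and macrophage markers 1 of 9, at Adgre1, melanocyte markers 1 of 8, at Dct, and Merkel cell markers 0 of 1. Keratinocyte markers had 12 of 55 (21.8%, 12.9 to 34.4%). With 39 regions over the 6 lists of other cells, of which 9 were closed, the part of other cells in the 5131 closed regions was not tested.

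Across the autosomes, 16.3 to 24.7% of the fresh regions were closed. On the X chromosome the share was 45 of 452 (9.96%, 7.52 to 13.1%), and 43 of 216 (19.9%, 15.1 to 25.7%) over 1 kb from a start, against 28% of all such regions. The lists also differed on the Y chromosome, with 11 regions in the cultured distal memory list, 16 in the cultured control list and 2 to 10 in the fresh lists, and the part of the animals' sex in the X share was not tested.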

How the data were processed

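ATAC-seq was made from 20 libraries of sorted mouse epidermal cells in 10 groups of 2. Per the labels, each group has 1 deposited list of peaks that pools both libraries, named as conservative sets of a reproducibility procedure. The authors' lists give, per peak, the signal value (an enrichment), the −log10 p and a summit offset. The submitters' processing notes name mm10. Aligner, caller, filters, read depth and any Tn5 shift are not stated in the sources used here, so the depth behind a missing peak is unknown.

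Peaks on chromosomes 1 to 19, X and Y that overlapped by 1 bp were merged over all lists, with pandas 2.3.3, numpy 2.4.6 and scipy 1.17.1 under Python 3.11.15, and matplotlib 3.10.9 drew the figures. Both counts, 101406 and 5131, were equal with bedtools 2.31.1. Code was tested on simulated data. Signal value and summit of a region are those of its strongest peak, and percentiles were taken within a list. Gene starts came from the RefSeq promoter table of GRCm38.p6, which holds 27025 genes, 17491 of the 21883 protein-coding ones, and was used without chromosome 18, so 217 closed regions have no distance. Gene spans of the same assembly gave the assignment.

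The regions, the 30 gene lists, of whose 457 genes 452 were found, and all choices were made with earlier results of these data known. Named genes were the 15 protein-coding genes with the most closed regions, the 15 with the highest share among genes with 5 or more fresh regions, up to 3 per list, and the 10 strongest closed regions overall and within 1 kb of a start; predicted genes were left out, and not every gene under this rule is reported here. Other genes named, the symbol families and the CpG count were picked with their values in view.

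Of the 22 motifs searched on both strands, AP-1, Fox, Gata, Tead, the GC box and ETS are spelled out with their results. The remaining ones were the cyclic AMP response element TGACGTCA, the clock and Myc element known as the E-box with letters CACGTG, the element of nuclear factor Y with letters CCAAT, the Runx family element with letters TGTGGTT, the Sox family element with letters AACAAAG, the Ror receptor element with letters AGGTCA, the clock output element called the D-box with letters TTATGNAA, the YY1 element AAGATGGC, the Klf family element GGGTGTGG, the Grhl family element AACCNGTT, the element of the aryl hydrocarbon receptor with letters TTGCGTG, and by name alone the glucocorticoid, p53 family, NF-kB, NRF1 and CTCF patterns. Motifs may overlap. Sequences away from starts were not used here. Alternatives changed the overlap, the strength threshold, the list length, the lists required, the window and the gene reach.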

Additional observations from a re-analysis of the deposited data

How the results depend on the processing

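The count of 5131 was within 1.5 times itself under most settings, but fell to 2710 with the strongest 50% of each list, to 1626 with the strongest 50% of each fresh list set against whole cultured lists, and to 1389 when those were ranked by −log10 p. All 3 settings keep fewer regions by construction. The share of 19.8% was 21.2%, 12.7% and 10.04% in these settings, so regions strong in every fresh list were less often without any cultured peak; the cause was not tested. It was 23.8% with a cover of at least 50% of the region, 22.5% with lists of equal length, 17.9% with no cultured peak within 1 kb, 25.1% and 21.0% with the distal memory or the control list alone, and 22.9%, 21.9% and 20.5% without the homeostasis, 8-week or second-wound list. The 4.25% of closed regions at starts became 2.97% with 500 bp and 2.44% with starts of protein-coding genes only; the 42.1% of regions of all 10 lists became 39.0% and 39.1%, and 48.6% with the strongest regions. The homeostasis medians were 52.7 (closed) and 60.0 (all 10 lists) by the median peak, and 42.5 and 69.8 by −log10 p, against 46.7 and 66.9. Median widths were 510 and 619 bp over the bases shared by all 8 fresh lists. Of 119 gene list shares under the alternatives, 18 lay outside the interval of the reported share. All but that of AP-1 genes within 20 kb came from the strongest 50% of each fresh list set against whole cultured lists. In that setting the share of all assigned regions was itself 11.5%, against 18.5% as reported. The settings by −log10 p and of protein-coding starts were chosen after seeing the data. No paired analysis was possible because each list pools both libraries, and for the same reason no replicate could be left out. No list gives a depth, so a weak region missing from culture cannot be told from one under the calling threshold.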
